A study of Mus musculus with 12 samples.

Results

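The genes described here are p53, a set of its transcriptional targets and cyclin-dependent kinase inhibitors that brake the cell cycle in senescence. They were taken by name from knowledge of the pathway, with earlier results of these data known, and number 10 of the 22794 genes in the count table: Trp53, which encodes p53, Mdm2, Cdkn1a, Cdkn2a, Cdkn2b, Bax, Ccng1, Sesn2, Trp53inp1 and Gdf15. Their mRNA was measured by RNA-seq in cardiomyocytes isolated from the hearts of wild-type C57BL6 mice, 16 weeks after surgery. The 12 libraries form 4 groups of 3: 5/6 nephrectomy (NX) with JV101, NX with saline, sham surgery with JV101 and sham surgery with saline. All 4 groups share the strain, the wild-type genotype, an operation and an injection, and the labels do not give what JV101 contains. The series title speaks of telomere recapping by gene therapy in cardio-renal syndrome, and the design asks how these genes stand after loss of kidney mass and with JV101. The labels number the replicates without saying whether each is a separate mouse, so a p-value reflects the spread between libraries, which may be technical. Age, sex and any pooling of hearts are not stated in the labels.

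The p53 protein is kept low by Mdm2, a ubiquitin ligase that is itself a p53 target, and it is held mainly at the level of the protein, so the Trp53 mRNA says little about its activity. When DNA damage or short, uncapped telomeres stabilise p53, it induces Cdkn1a, whose product p21 blocks cyclin-dependent kinases, together with genes of apoptosis, metabolism and antioxidant defence. The Cdkn2a and Cdkn2b products p16 and p15 inhibit the kinases that phosphorylate the RB protein, and together with p21 they hold senescent cells out of the cell cycle. Adult cardiomyocytes have mostly left the cell cycle already.

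The promoters that carry a p53 site are shown first, though such a site was found in only some of the 10 genes. RefSeq promoter windows of GRCm38.p6, an older build than the GRCm39 of the deposited counts, span 250 bases before to 50 after a start and gave 12 windows for 9 of the 10 genes. A p53 half-site of 10 bases stood in a window of 5 genes, Bax, Ccng1, Cdkn1a, Mdm2 and Trp53, and in 8.36% of all 32851 windows. Only the window of Cdkn1a below, of the 12, held 2 half-sites with no mismatch and at most 13 bases between them, a pattern found in 0.0731% of all windows. Allowing 1 mismatch added Bax and Ccng1, against 1.09% of all windows. The sequences run from 5′ to 3′ on the strand of the gene, and capitals mark the 2 half-sites of the pair with the fewest mismatches in each window.
Cdkn1a: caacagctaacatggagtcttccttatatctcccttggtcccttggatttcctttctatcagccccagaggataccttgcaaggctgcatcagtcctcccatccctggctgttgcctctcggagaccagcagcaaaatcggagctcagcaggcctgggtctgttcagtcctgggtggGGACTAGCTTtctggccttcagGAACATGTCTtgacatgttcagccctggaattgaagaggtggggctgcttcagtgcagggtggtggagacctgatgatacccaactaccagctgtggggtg
Bax: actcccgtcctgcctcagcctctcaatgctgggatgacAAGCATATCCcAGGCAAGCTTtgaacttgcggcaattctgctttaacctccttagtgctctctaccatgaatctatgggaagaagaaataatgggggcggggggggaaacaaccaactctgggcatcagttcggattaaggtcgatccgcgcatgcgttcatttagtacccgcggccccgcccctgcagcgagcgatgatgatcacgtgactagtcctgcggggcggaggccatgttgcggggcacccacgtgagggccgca
Ccng1: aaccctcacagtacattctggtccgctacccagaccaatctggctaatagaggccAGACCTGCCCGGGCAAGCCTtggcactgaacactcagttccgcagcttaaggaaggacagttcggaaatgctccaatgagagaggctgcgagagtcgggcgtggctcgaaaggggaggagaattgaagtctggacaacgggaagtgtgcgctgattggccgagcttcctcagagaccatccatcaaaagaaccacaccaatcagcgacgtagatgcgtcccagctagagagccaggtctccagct
The Cdkn1a window shown is chr17:29090729-29091028 on the plus strand. Its pair with the fewest mismatches begins 73 bases before the start in that window, and 12 bases separate the half-sites. The second of them, GAACATGTCT, is followed with a gap of 0 bases by tgacatgttc, which has 1 mismatch. These adjoining stretches, not both in capitals, thus also form a pair with 1 mismatch. Another Cdkn1a window, chr17:29093519-29093818, belongs to a start further downstream, and its best pair had 5 mismatches. The Bax window is chr7:45466849-45467148 on the minus strand, with a pair that begins 212 bases before the start, a gap of 1 base and 1 mismatch. The Ccng1 window is chr11:40755237-40755536 on the minus strand, where a pair with 1 mismatch begins 195 bases before the start and has a gap of 0 bases. The letters GGGCGG of a GC box were found in windows of 6 of the genes (35.7% of all windows, either strand), CCAAT in 6 (37.4%), CACGTG in 3 (7.15%) and TATAAA in Trp53 (13.6%). Such matches describe the sequence and do not show binding. Sequence outside these windows was not searched, so a gene without a match may hold a site elsewhere.

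Libraries held 26.4 to 33.8 M counts, of which the 13 mitochondrially encoded protein genes took 36.7% to 69.0%, with the highest shares in NX saline replicate 3, sham JV101 replicate 2 and sham saline replicate 2. Levels are given as CPM, counts relative to library size with TMM factors, and comparisons as log2 fold changes from edgeR's quasi-likelihood test with Benjamini-Hochberg adjustment over all 14412 genes that passed the filter on low counts. All 10 of 10 cardiomyocyte markers were detected in every library, summing to 41522 to 57879 CPM in NX JV101, 46786 to 65277 in NX saline, 40199 to 71453 in sham JV101 and 55562 to 66681 in sham saline, which matches the label of the cells. Markers of other heart cells were present too. The 10 endothelial markers, none at 0 in any library, summed to 1210 to 2236 CPM in NX JV101, 725 to 2424 in NX saline, 405 to 2308 in sham JV101 and 841 to 1170 in sham saline. In such bulk samples, fewer cells of a type and less RNA per cell cannot be told apart.

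Per transcript length, which allows genes to be compared, Ccng1 was the most abundant of the 10 by far. Its mean over the 12 libraries was 183 ± 42.8 FPKM (SD), above 25.3 ± 14.6 for Cdkn1a, 10.3 ± 3.90 for Bax, 4.70 ± 0.959 for Mdm2 and 4.54 ± 1.45 for Trp53. Further down came Trp53inp1 at 1.89 ± 0.657 FPKM, Gdf15 at 1.12 ± 0.459 and Sesn2 at 0.777 ± 0.257. The INK4 genes Cdkn2a and Cdkn2b lay at the bottom with 0.180 ± 0.202 and 0.165 ± 0.108 FPKM. Ccng1 exceeded Cdkn1a in 12 of 12 libraries, and Bax exceeded Mdm2 in 12 of 12. Mdm2 and Trp53 were in that order in 7 of 12 libraries and Cdkn2a and Cdkn2b in 5 of 12, so neither pair could be ranked. Cdkn1a stood above Bax in 10 of 12 libraries. In GENCODE vM21, exons of Cdkn1a share 273 bases with AC167363.2 on the opposite strand and exons of Bax share 192 bases with Gm45808 on the same strand. Neither of these neighbours is a row of the count table, and how their reads were counted is unknown.

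**Figure D1:**
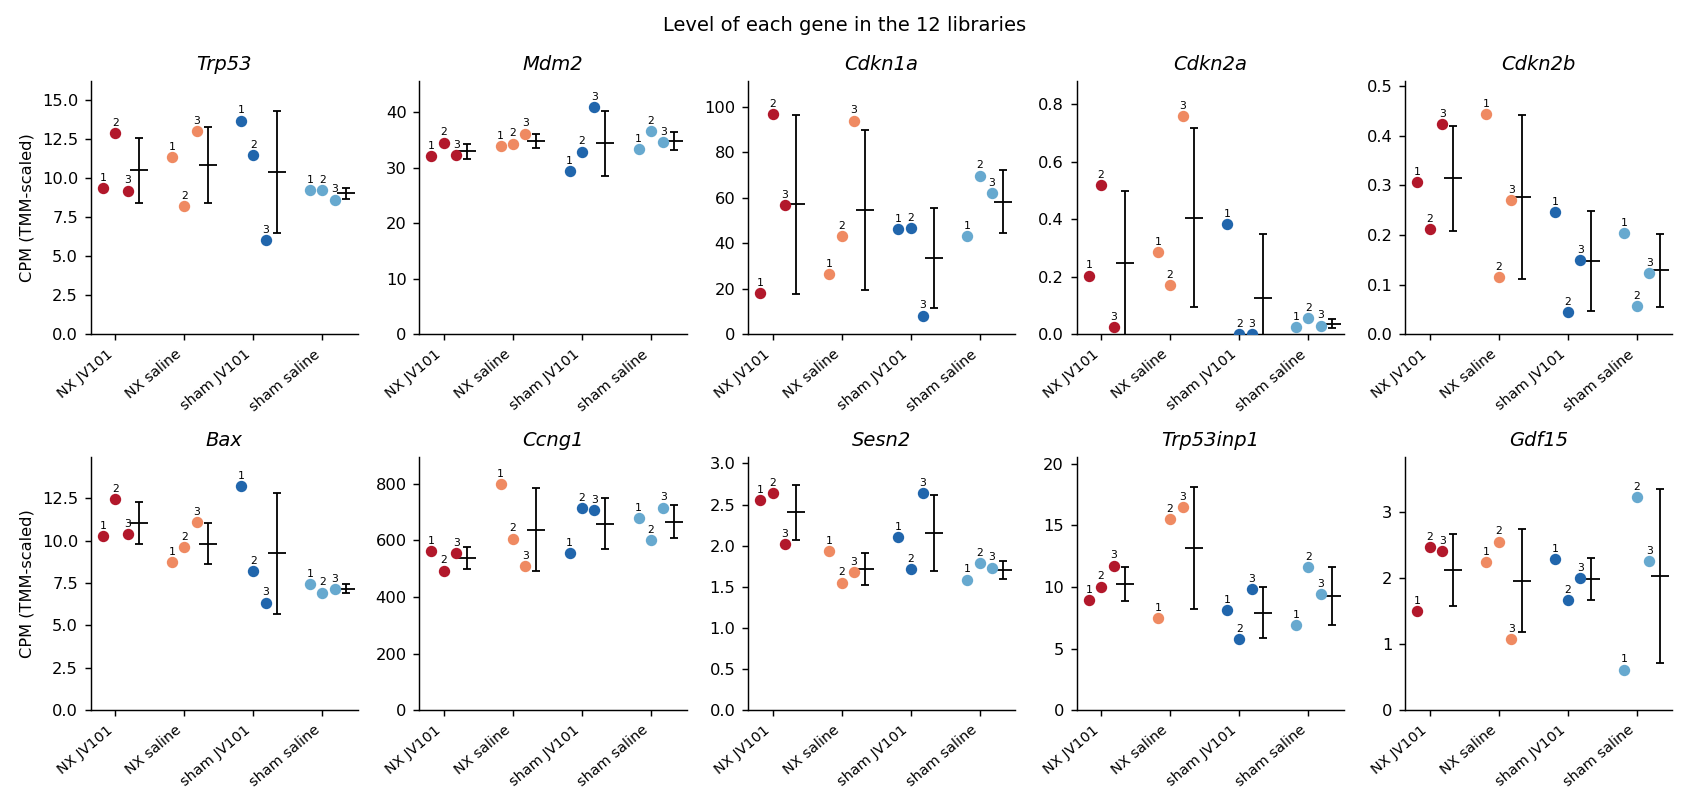
Level of each of the 10 genes in CPM (linear axis from 0) in the 3 libraries of each group, as numbered points, with the mean and SD beside them as a dash and bar. Points of the 4 groups overlap in most panels. The panels of Bax and Cdkn2a show NX saline above sham saline, and that of Sesn2 shows NX JV101 above NX saline.

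None of the 9 genes tested was called in any of the 8 comparisons. Of all genes, edgeR called 0 (0%) in each comparison, while DESeq2 called 1 in NX saline against sham saline (0.00694%), 8 in NX JV101 against NX saline (0.0555%), 1 in the average of NX against sham (0.00694%), 7 in the average of JV101 against saline (0.0486%) and 11 in the test of any difference among the 4 groups (0.0764%). No gene of the 10 was among them. Cdkn2b did not pass the filter on low counts, so 9 were tested. At an unadjusted p under 0.05, 1 of the 9 stood out in NX saline against sham saline (Cdkn2a; 3.64% of all genes, 524) and 1 in the average of JV101 against saline (Sesn2; 2.28% of all genes, 329). For NX JV101 against NX saline it was 0 of 9, with 2.39% of all genes (345). It was also 0 of 9 for NX JV101 against sham JV101 (2.07%, 299), sham JV101 against sham saline (1.7%, 245) and the interaction of nephrectomy and JV101 (1.78%, 256). The average of NX against sham (4.36%, 629) and the test of any difference among the 4 groups (2.21%, 319) likewise gave 0 of 9. The smallest adjusted p of a gene among the 9 was 0.860, in the average of NX against sham.

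Trp53 mRNA showed no difference between groups beyond the spread of its libraries. It stood at 9.40, 12.9 and 9.22 CPM in NX JV101, 11.4, 8.22 and 13.1 in NX saline, 13.7, 11.5 and 6.05 in sham JV101 and 9.26, 9.24 and 8.64 in sham saline. Both ends of the range, 6.05 and 13.7 CPM, lay within sham JV101. The log2 fold change was −0.04 (95% interval −0.65 to 0.56) for NX JV101 against NX saline and 0.26 (−0.34 to 0.87) for NX saline against sham saline (edgeR quasi-likelihood, adjusted p = 1.00 and 0.994). Mdm2, the brake on p53 and its feedback target, was the steadiest of the 10. It had 32.1, 34.5 and 32.2 CPM in NX JV101, 33.9, 34.3 and 36.1 in NX saline, 29.4, 32.9 and 40.8 in sham JV101 and 33.4, 36.5 and 34.6 in sham saline. Its log2 fold change was −0.08 (−0.37 to 0.21) for NX JV101 against NX saline, 0.00 (−0.29 to 0.29) for NX saline against sham saline and −0.03 (−0.24 to 0.17) for the average of NX against sham. These are the narrowest intervals among the 9 genes.

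Cdkn1a, the p21 gene, varied more between libraries of 1 group than between groups. NX JV101 libraries had 18.2, 96.9 and 56.8 CPM, NX saline 26.4, 43.3 and 94.0, sham JV101 46.2, 46.7 and 8.27, and sham saline 43.1, 69.9 and 62.3. The highest library held 11.7 times the level of the lowest. Each pair of groups overlapped: both NX groups had a library below all of sham saline and one above all of it. The log2 fold change was 0.07 (95% interval −1.41 to 1.55) for NX JV101 against NX saline, −0.10 (−1.58 to 1.38) for NX saline against sham saline and −0.79 (−2.28 to 0.70) for sham JV101 against sham saline. A 2-fold difference in either direction lies within the first pair of these intervals. Single libraries moved these values. Leaving out replicate 2 of NX JV101 gave −0.54 for NX JV101 against NX saline, and leaving out replicate 3 of NX saline gave 0.69. For NX saline against sham saline the value was −0.73 when replicate 3 of NX saline was dropped and 0.23 when its replicate 1 was. Dropping replicate 3 of sham JV101 gave −0.34 for sham JV101 against sham saline.

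The spread of Cdkn1a was unusual for its level. The SD of its log2 CPM within groups was 1.07, larger than that of 95.4% of all tested genes and of 99.2% of those within 2-fold of its mean level. Mdm2 lay at the other end with an SD of 0.13, larger than that of 5.57% of all tested genes and of 12.2% at its level. Sesn2 was also even for its low level, with an SD of 0.20 that exceeded 3% of genes within 2-fold of its mean. Intermediate were Ccng1 (0.21), Bax (0.29), Trp53 (0.38), Trp53inp1 (0.43) and Gdf15 (0.72). Cdkn2a had 1.16, at a level where counts are few.

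**Figure D2:**
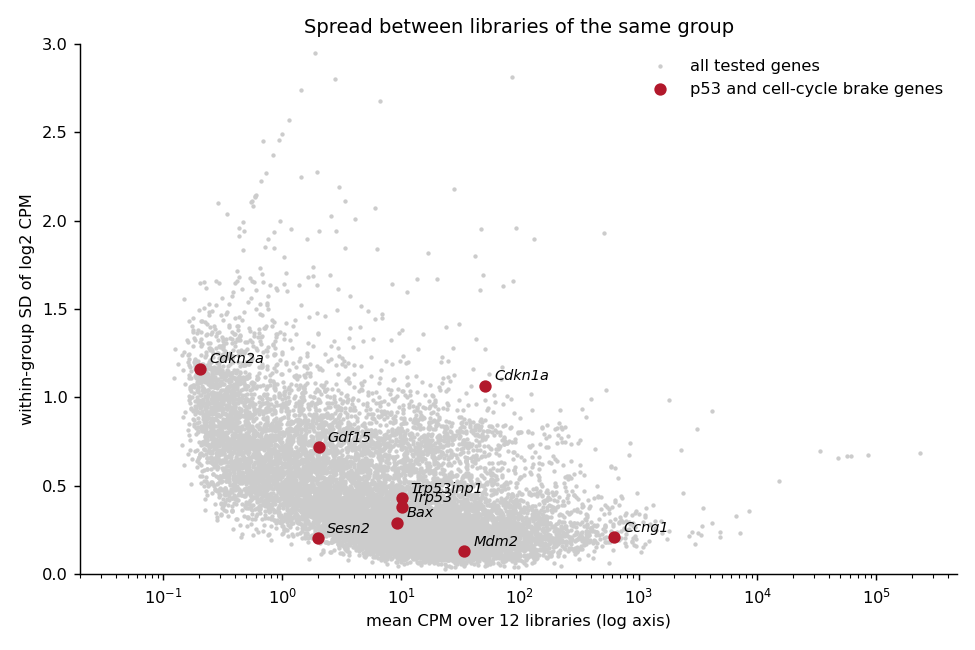
Within-group SD of log2 CPM (vertical, 14 genes lie above the axis) against mean CPM over 12 libraries (log axis) for all tested genes in grey and the 9 tested genes in red. Cdkn1a lies at the upper edge of the cloud for its level with an SD of 1.07, and Mdm2 near the lower edge with 0.13.

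Cdkn2a, whose transcripts encode p16 and p19ARF and cannot be told apart in a count per gene, was close to the detection limit. Libraries held 6, 22 and 1 counts in NX JV101, 9, 6 and 14 in NX saline, 14, 0 and 0 in sham JV101 and 1, 1 and 1 in sham saline. Each NX saline library therefore lay above each sham saline library, a pattern that 4.9% of all tested genes had in that direction. Summed over 3 libraries, 29 counts in NX saline stood against 3 in sham saline, a ratio of 10.1 with an exact 95% interval of 3.13 to 51.9 that covers counting error only. The fitted log2 fold change was 3.34 ± 1.49 (SE, unadjusted p = 0.0459, edgeR adjusted p = 0.994). NX JV101 against NX saline stood at 29 counts against 29, a ratio of 0.758 (0.437 to 1.31) after scaling, but 22 of the 29 NX JV101 counts came from replicate 2. The fitted log2 fold change of that comparison was −0.62. It came to −1.80 when that library was left out and to 0.11 when replicate 3 of NX saline was. All 14 counts of sham JV101 came from replicate 1, and without that library the sign of sham JV101 against sham saline turned round, to a fitted log2 fold change of −3.27 against 1.88 with it. With both remaining libraries at 0, the first of these values depends on the prior count and gives no size. In the 2 sham JV101 libraries at 0, the limit that a count of 0 allows was 3 counts, or 0.136 and 0.0898 CPM.

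Cdkn2b, the p15 gene next to Cdkn2a on chromosome 4, had 9, 9 and 17 counts in NX JV101, 14, 4 and 5 in NX saline, 9, 1 and 5 in sham JV101 and 8, 1 and 4 in sham saline. Each NX JV101 library, at 0.307, 0.212 and 0.424 CPM, lay above each sham saline library, at 0.205, 0.0577 and 0.124 CPM, as 10.2% of all tested genes did. The other pairs of groups overlapped. Summed counts were 35 in NX JV101 against 23 in NX saline, a ratio of 1.15 (0.662 to 2.04), and 23 in NX saline against 13 in sham saline, 1.85 (0.899 to 3.98). NX JV101 against sham JV101 gave 35 counts against 15 and a ratio of 1.92 (1.02 to 3.78, counting error only). Without the filter on low counts the average of NX against sham was 1.03 ± 0.61 in log2 (edgeR adjusted p = 0.948).

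Bax, which permeabilises the outer mitochondrial membrane in apoptosis, had the smallest p of the 9 in the test of any difference among the 4 groups (unadjusted p = 0.118, edgeR adjusted p = 1.00). It stood at 10.3, 12.4 and 10.4 CPM in NX JV101, 8.75, 9.60 and 11.1 in NX saline, 13.2, 8.18 and 6.35 in sham JV101 and 7.45, 6.93 and 7.15 in sham saline. Every NX library of either injection was above the 3 sham saline libraries, while sham JV101 spanned the whole range. Among all tested genes, 4.9% lay as clearly higher in NX saline than in sham saline and 10.2% in NX JV101 than in sham saline. The difference of NX saline from sham saline was 0.45 ± 0.24 in log2 (unadjusted p = 0.0812, edgeR adjusted p = 0.994) and that of the average of NX from sham 0.35 ± 0.17 (unadjusted p = 0.0559, edgeR adjusted p = 0.860). Markers of some non-myocytes moved with Bax. Across the 12 libraries its log2 CPM had r = 0.832 with the endothelial score and 0.840 with the fibroblast score. It had 0.849 with the score of smooth muscle and pericytes and −0.842 with the cardiomyocyte score. A score is the mean over a list's genes of log2 CPM less the gene's mean over the libraries. Leaving out the 2 libraries farthest from the median score gave r = 0.780, 0.746, 0.932 and −0.686 in the same order. With the other non-myocyte scores, r of Bax over the 12 libraries was 0.752 for Schwann cells, 0.710 for macrophages and 0.507 for neutrophils. It was 0.473 for adipocytes, −0.173 for lymphocytes and −0.156 for mesothelium. In NX saline against sham saline, 10 of 10 fibroblast, 9 of 10 endothelial and 8 of 9 smooth muscle and pericyte markers had a positive log2 fold change, with medians of 0.48, 0.60 and 0.34 and 0 called. The part of these markers in the Bax values was not tested.

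Ccng1, cyclin G1, a p53 target that recruits a phosphatase to Mdm2, ran opposite to Bax over the libraries. It had 563, 493 and 555 CPM in NX JV101, 798, 606 and 510 in NX saline, 554, 713 and 707 in sham JV101 and 680, 602 and 716 in sham saline. NX JV101 lay entirely below sham saline, as did 8.23% of all tested genes. No other pair of groups was separate. The log2 fold change was −0.25 (95% interval −0.65 to 0.15) for NX JV101 against NX saline, −0.29 (−0.70 to 0.11) for NX JV101 against sham JV101 and −0.06 (−0.46 to 0.34) for NX saline against sham saline. Across the 12 libraries Ccng1 had r = 0.879 with the cardiomyocyte score, 0.898 without the 2 farthest libraries, and −0.775 with the endothelial score. Bax and Ccng1 had r = −0.742 with each other. The 2 targets thus ran with opposite marker lists, and the part of cell makeup in either was not tested.

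**Figure D3:**
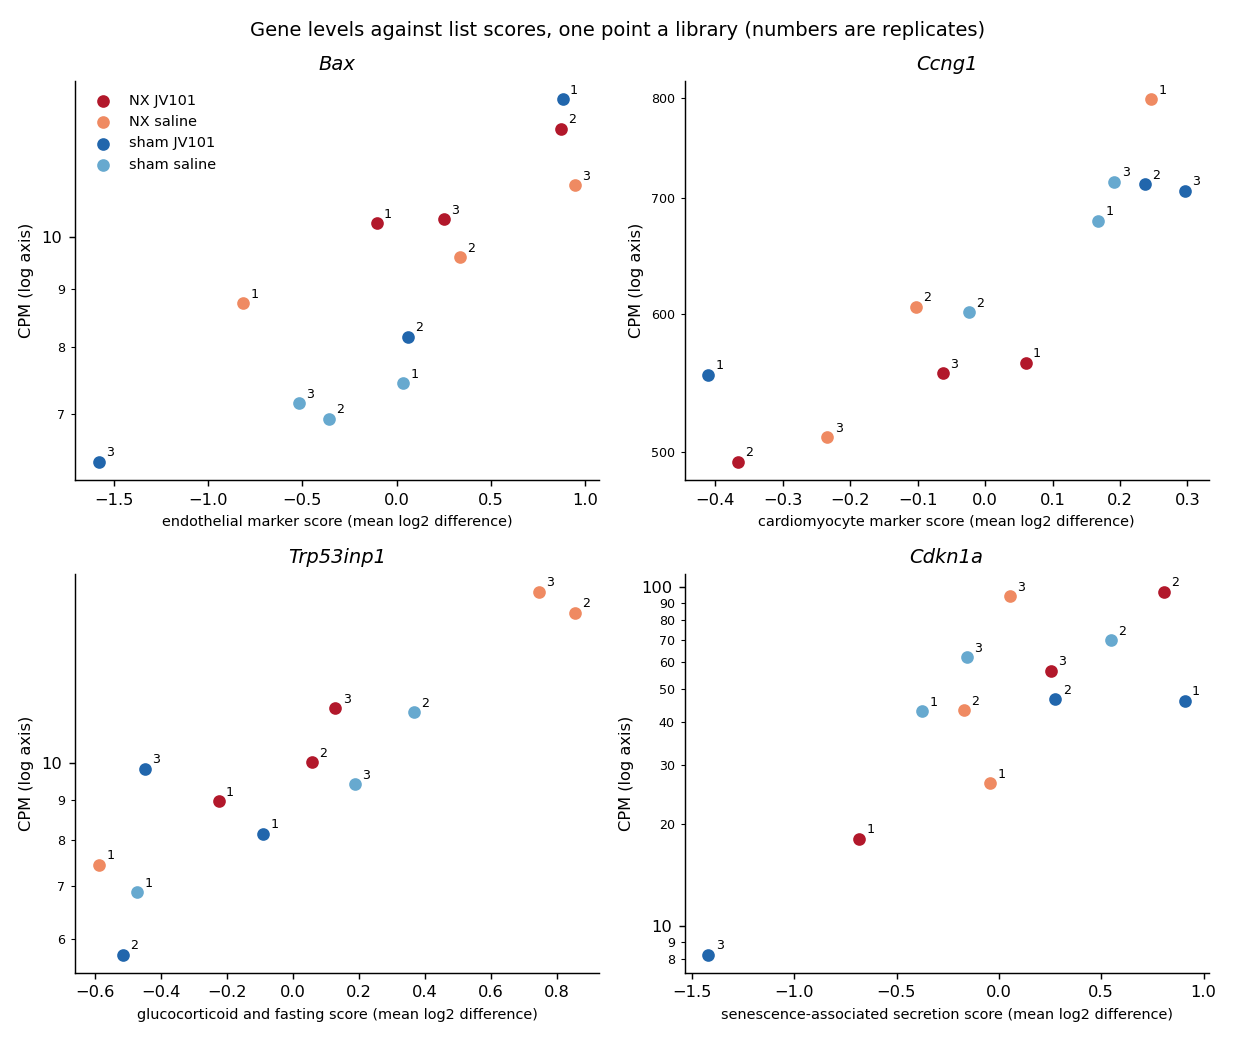
CPM (log axis) against the score of a gene list (mean log2 difference from each gene's mean over the libraries), 1 point a library, coloured by group and numbered by replicate. Bax was higher where the endothelial score was higher (r = 0.832), as were Ccng1 with the cardiomyocyte score (0.879), Trp53inp1 with the glucocorticoid and fasting score (0.902) and Cdkn1a with the secretion score (0.802).

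Sesn2, sestrin 2, which restrains mTORC1 and is induced by p53 and by ATF4, had the smallest p of the 9 for JV101 against saline. It had 2.55, 2.64 and 2.02 CPM in NX JV101, 1.93, 1.55 and 1.68 in NX saline, 2.11, 1.72 and 2.64 in sham JV101 and 1.59, 1.79 and 1.73 in sham saline. The NX JV101 libraries all lay above the NX saline libraries, as did 4.52% of all tested genes. They also lay above the sham saline libraries, as did 10.2% of all tested genes, while the sham groups overlapped. Averaged over both surgeries the log2 difference of JV101 from saline was 0.41 ± 0.18 (unadjusted p = 0.0403, edgeR adjusted p = 1.00), with 0.48 ± 0.25 in NX and 0.34 ± 0.25 in sham mice. The interaction was 0.14 ± 0.36, so no difference between the surgeries was detectable. These values rest on 31 to 112 counts a library. Markers of other cells leaned in both directions in the same contrast. Positive were 9 of 10 atrial (median 0.27), fibroblast (0.36), endothelial (0.22) and macrophage (0.13) markers. So were 8 of 9 smooth muscle and pericyte markers (0.38), with 0 called in these lists. In NX JV101 against NX saline, 10 of 10 atrial markers were positive (median 1.58, 0 called). They summed to 993 to 1646 CPM in NX JV101 and 302 to 568 in NX saline. Of 10 mesothelial markers, none at 0 in any library, 10 were negative for the average of JV101 against saline (median −0.94, 8 at an unadjusted p under 0.05, 0 called). They summed to 36.5 to 45.4 CPM in NX JV101, 60.9 to 127 in NX saline, 42.3 to 59.9 in sham JV101 and 69.2 to 87.8 in sham saline. Of 10 lymphocyte markers 6 were tested and 5 were negative, with sums of 1.47 to 3.65 CPM in NX JV101, 3.42 to 16.5 in NX saline, 1.98 to 7.59 in sham JV101 and 4.02 to 16.9 in sham saline. Over the 12 libraries Sesn2 had r = −0.612 with the mesothelial and −0.655 with the lymphocyte score, or −0.704 and −0.731 without the 2 farthest. After group means were taken out, these were 0.0989 and −0.293. With the atrial score r was 0.413, and 0.396 after group means were taken out. For the fibroblast, endothelial and smooth muscle scores it was −0.0215, −0.185 and −0.115. Those 3 came to −0.277, −0.532 and −0.652 after group means were taken out. The part of such markers in the Sesn2 values was not tested.

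Trp53inp1, which encodes a p53-induced nuclear protein of autophagy and cell death, had 8.96, 10.04 and 11.7 CPM in NX JV101, 7.45, 15.5 and 16.5 in NX saline, 8.15, 5.74 and 9.85 in sham JV101 and 6.88, 11.6 and 9.41 in sham saline. Replicates 2 and 3 of NX saline were the highest of all 12, while replicate 1 lay among the sham libraries. The average of NX against sham was 0.44 ± 0.22 in log2 (unadjusted p = 0.0680, edgeR adjusted p = 0.860), and NX JV101 against NX saline gave −0.35 ± 0.30. The 15 genes of glucocorticoid and fasting response, such as Pdk4 and Klf9, varied with it: r was 0.902 over the 12 libraries, 0.778 without the 2 farthest and 0.881 after group means were taken out. That list's score was −0.23 to 0.13 in NX JV101, −0.59 to 0.86 in NX saline, −0.52 to −0.09 in sham JV101 and −0.47 to 0.37 in sham saline. Klf9, a transcription factor induced by glucocorticoids, was the gene with the highest r to Trp53inp1 (0.912) among 8943 candidates. As Klf9 belongs to that list, its r and that of the score are not independent. Other lists ran with Trp53inp1 too, with r = 0.717 for the ATF4 stress response, 0.688 for regulators of p53 and 0.674 for adipocyte markers. Of 5 adipocyte markers tested, 5 were positive in the average of NX against sham (median 3.12, 4 at an unadjusted p under 0.05, 0 called). The part of adipocyte markers in the Trp53inp1 values was not tested. Nor was that of feeding state or time of day, which the labels leave out.

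Gdf15, a secreted stress cytokine, had 1.50, 2.47 and 2.42 CPM in NX JV101, 2.25, 2.56 and 1.08 in NX saline, 2.30, 1.67 and 2.01 in sham JV101 and 0.614, 3.23 and 2.26 in sham saline. Sham saline held both the lowest and the highest library. The log2 fold change was 0.11 (95% interval −1.0 to 1.21) for NX JV101 against NX saline and −0.01 (−1.14 to 1.12) for NX saline against sham saline. Its libraries held 20 to 105 counts.

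**Figure D4:**
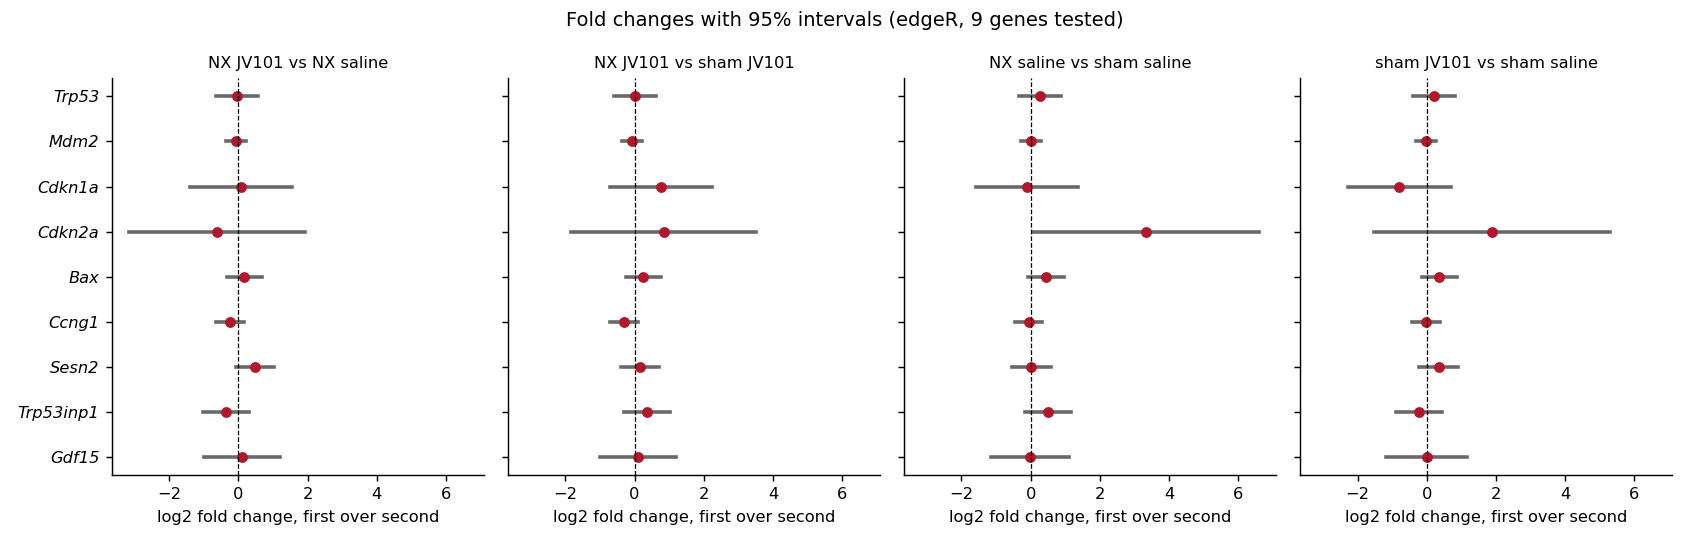
Log2 fold change (point, first-named group over second) and 95% interval (line) of the 9 tested genes in the 4 comparisons of a pair of groups, from edgeR. Intervals of Mdm2 and Ccng1 are short and those of Cdkn1a, Cdkn2a and Gdf15 long, and only that of Cdkn2a in NX saline against sham saline leaves out 0 (0.07 to 6.61).

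The 10 genes did not vary as 1 block. Trp53 had r = 0.739 with Bax and 0.636 with Cdkn1a over the 12 libraries, but −0.590 with Mdm2 and −0.425 with Ccng1. Cdkn1a and Mdm2 had r = −0.281, and Bax and Mdm2 −0.629. Sham JV101 replicate 3 was the lowest of the 12 libraries for Trp53, Cdkn1a and Bax and the highest for Mdm2, and it also had the lowest endothelial, fibroblast, macrophage and smooth muscle scores. Its endothelial markers summed to 405 CPM and its fibroblast markers to 516. Trp53 had r = 0.763 with the fibroblast, 0.762 with the endothelial, 0.742 with the smooth muscle and −0.621 with the cardiomyocyte score. Without the 2 libraries farthest out these came to 0.471, 0.476, 0.679 and −0.348. Cdkn1a had r = 0.769 with the macrophage score and 0.735 with the fibroblast score, which came to 0.421 and 0.327 without the 2 libraries farthest out. With the endothelial, smooth muscle and cardiomyocyte scores it had 0.745, 0.705 and −0.592, or 0.389, 0.171 and −0.614 so trimmed. Its relation to the senescence-associated secretion score, a list of cytokines, chemokines and proteases such as Il6 and Ccl2, was r = 0.802 and 0.736 without the 2 farthest. The libraries left out for this list were not the same as for the macrophage and fibroblast lists. The trimmed values therefore cannot be set against each other. After group means were taken out, r was 0.833 for the macrophage, 0.845 for the fibroblast and 0.869 for the secretion score. These correlations over 12 libraries, which differ in depth and in levels of cell markers, are descriptions without a test.

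Genes whose log2 CPM ran most like each gene over the 12 libraries, among 8943 with a mean of at least 5 CPM, differed from gene to gene. For Trp53 they were Uba2 (r = 0.963), Slc25a24 (0.937) and Hnrnpf (0.935), and for Mdm2 Btbd9 (0.946), Rnf6 (0.933) and Rxrb (0.876). Cdkn1a ran most like Dynll1 (0.939), Jdp2 (0.937) and Cyp1b1 (0.931). Bax had the highest value of all, with Tspan12 (0.988), then Coro1b (0.974) and Mfsd1 (0.974). Ccng1 ran with Atad1 (0.960), Oma1 (0.955) and Tcaim (0.953), where Atad1 and Oma1 encode mitochondrial quality-control proteins. Sesn2 ran with Ppil2 (0.895), Trmt112 (0.874) and Abhd17a (0.867). After Klf9, Trp53inp1 had Cxxc1 (0.872) and Pim3 (0.865). Gdf15 ran with Mgst1 (0.899), Snx5 (0.835) and Dram2 (0.833), of which Dram2 is a relative of the p53-induced autophagy gene Dram1. None of the 8 genes had another of the 10 in its top 3.

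The wider p53 network also held no gene that passed the test. Of 30 other p53 targets, all tested, 0 were called in any comparison. In NX saline against sham saline 15 had a positive and 15 a negative log2 fold change, with a median of 0.00, where 52.9% of all genes were positive. NX JV101 against NX saline gave 23 positive and a median of 0.10, with 51.9% of all genes positive. Btg2, an antiproliferative p53 target, averaged 177 ± 38.7 CPM in NX JV101, 135 ± 60.8 in NX saline, 101 ± 14.9 in sham JV101 and 117 ± 13.7 in sham saline, and its average of NX against sham was 0.51 ± 0.22 in log2 (unadjusted p = 0.0415, edgeR adjusted p = 0.860). Pidd1, a death-domain protein, had −0.52 ± 0.33 in the same average. Of 21 regulators of p53, 20 were tested with a median of 0.00 for NX against sham. In the same average Trp63, a p53 homologue, had 0.98 ± 0.46 and Npm1, nucleophosmin, 0.19 ± 0.09.

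Of the genes that the brakes act on or share a role with, again 0 passed. All 5 other cyclin-dependent kinase inhibitors were positive in NX saline against sham saline, with a median of 0.20, and among them Cdkn1b (p27) had 0.20 ± 0.23 and the phosphatase Cdkn3 0.89 ± 0.97. Of 16 G1 cyclins, kinases and RB family genes, 9 were positive, and Cdk2 and Ccnd1, the kinase and cyclin of entry into the cycle, had 0.91 ± 0.25 and 0.74 ± 0.35. The BCL2 family had 10 of 13 tested genes positive in that comparison, with a median of 0.16. Its member Bok, an apoptosis effector related to Bax, had 1.40 ± 0.41, and the survival factor Mcl1 0.04 ± 0.14 (SE). The fibroblast, endothelial and smooth muscle markers that were mostly positive in this comparison are given with Bax, and their part in these lists was not tested. The smallest edgeR adjusted p in these lists was 0.994 for that comparison.

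The senescence-associated secretion list, with 21 of 23 genes tested, had a median of −0.06 in NX saline against sham saline and 0.36 in NX JV101 against NX saline, where 15 were positive. Vegfa, the angiogenic factor, had −0.63 ± 0.28 in NX saline against sham saline and Edn3, endothelin 3, 0.93 ± 0.53. The other senescence markers, 10 tested, had medians of 0.06 and −0.04 in those comparisons, and Dpp4 and Cbx7 had 0.17 ± 0.32 and −0.10 ± 0.20 in the first. In the average of JV101 against saline they had −0.65 ± 0.23 and 0.11 ± 0.14, and neither passed the test. The ATF4 stress response, which shares Sesn2 as a target, had 18 tested genes. Their medians were 0.04 in NX saline against sham saline and 0.14 in NX JV101 against NX saline. Ddit4, an mTORC1 inhibitor, and Atf3 had −0.74 ± 0.45 and −1.11 ± 0.54 in NX saline against sham saline. Their interactions of nephrectomy and JV101 were 1.81 ± 0.63 and 1.76 ± 0.76 (unadjusted p = 0.0149 and 0.0387, edgeR adjusted p = 1.00 for both). The glucocorticoid and fasting list was positive for 14 of 15 genes in NX saline against sham saline with a median of 0.43 and for 5 in NX JV101 against NX saline with −0.27. Its genes Pdk4 and Ucp3 had −1.83 ± 0.46 and −1.08 ± 0.38 in the average of JV101 against saline, and neither passed the test. In NX saline against sham saline they had 0.47 ± 0.64 and 1.05 ± 0.54. The core clock list, with 14 genes tested, had a median of 0.16 in that comparison, and Nfil3 and Nr1d1 had −1.65 ± 0.40 and 0.67 ± 0.32.

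**Figure D5:**
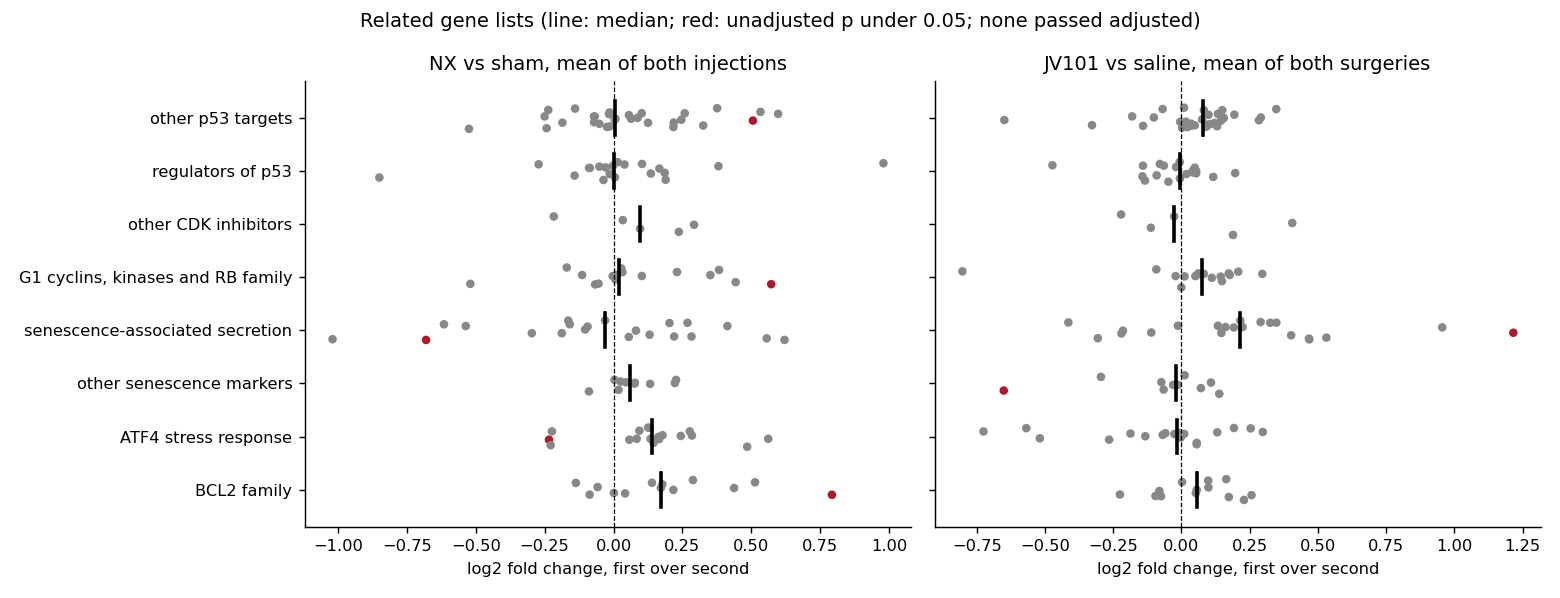
Log2 fold change of each tested gene of 8 related lists (point, red where the unadjusted p was under 0.05) and the list's median (line), for the average of NX against sham on the left and of JV101 against saline on the right. Medians lie near 0, between −0.03 and 0.22, and no gene passed the adjusted threshold.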

How the data were processed

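Per the labels, RNA of cardiomyocytes was purified with an RNeasy kit and 1.3 µg went into each polyA library (VAHTS Universal V6). Per the submitters' processing notes, fastp, HISAT2 and HTSeq were used with GRCm39. No version, annotation or strand setting is stated there, so reads of overlapping antisense genes cannot be told apart. The authors deposited raw counts per gene and FPKM. The counts were used for all tests, and FPKM for levels between genes and as an alternative. Each column was matched to its sample by the column name in the labels.

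The 10 genes and the 21 gene lists, 11 of them cell markers, were chosen with earlier results of these data known. Genes were kept with filterByExpr of edgeR 4.0.16 (minimum count 10, total 15), leaving 14412 genes. TMM-scaled counts were fitted over all 12 libraries with group as the only term (R 4.3.3). F tests were 2-sided, with a threshold of 0.05 after Benjamini-Hochberg adjustment. SE is the absolute log2 fold change over the square root of F. The rule for named genes took all 10 genes, the 2 genes of each list with the smallest p in the test of any difference (markers are given as lists), and the 3 genes most alike by Pearson's r of log2 CPM (prior count 2) for the 8 genes with a mean of at least 1 CPM. Others were named after their values were seen. The 13 mitochondrial genes were found by name.

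Alternatives were DESeq2 1.42.0, RLE and upper-quartile factors, counts without mitochondrial genes, other filters, pairs of groups alone, a replicate block, limma 3.58.1 on log2 FPKM with pseudocounts of 1 and 0.1, and leaving out each library. Leaving out the 3 libraries of highest mitochondrial share was chosen after seeing the data. The edgeR step was checked on simulated counts. Same-numbered libraries of different groups did not stand out in how they deviated together (r −0.503 to 0.250, over 0.1 in 6 of 18 pairs). Differently numbered pairs had r −0.541 to 0.546, over 0.1 in 10 of 36. The numbers were therefore not taken to pair the samples.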

Additional observations from a re-analysis of the deposited data

How the results depend on the processing

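In 1592 values of the 9 tested genes under alternatives, 0 passed the threshold, and the smallest adjusted p was 0.196. DESeq2 called 1 gene in NX saline against sham saline, 8 in NX JV101 against NX saline, 1 in the average of NX against sham, 7 in the average of JV101 against saline and 11 in the test of any difference, where edgeR called 0; none is among the 10 genes, and the cause was not tested. With the replicate number as a replicate block, edgeR called 0 genes in each comparison, as without it, and NX saline against sham saline had 405 genes at an unadjusted p under 0.05. On deposited FPKM, which are scaled to all counts with no TMM factors, the median of all genes moved by 0.27 (pseudocount 1) and 0.33 (pseudocount 0.1) in log2 for NX JV101 against NX saline and by 0.16 and 0.21 for the average of JV101 against saline. There Ccng1 turned to 0.11 with either pseudocount (−0.25 in edgeR) and Trp53inp1 to 0.022 and 0.046 (−0.35) for NX JV101 against NX saline, and Ccng1 to 0.10 with both (−0.13) in the average of JV101 against saline. Cdkn2a ran from −3.27 to 2.44 for sham JV101 against sham saline and from −3.66 to 2.65 for the interaction when each library was left out, with the sign turned round without sham JV101 replicate 1. Few counts limit Cdkn2a, Cdkn2b, Gdf15 and Sesn2, and the spread between libraries limits Cdkn1a.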
